A study of Mus musculus with 26 samples.

Results

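Lipid carriers of astrocytes and of their progenitors were followed through 9 conditions of neurosphere (NSP) differentiation. The 10 genes are *Apoe*, *Clu* and *Apod* (secreted lipid-binding proteins), *Fabp5* and *Fabp7* (intracellular fatty acid-binding proteins), *Lpl* and *Acsbg1* (fatty acid release and activation), *Scd1* and *Scd2* (fatty acid desaturases) and *Ch25h* (cholesterol 25-hydroxylase). They were chosen by name, through the gene symbol that the array annotation gives to a probe set, and not by a cut on their values. Earlier results of these data were known when they were chosen. They are 10 of 19938 genes with a probe set of a single symbol, and they are covered by 11 of 35556 probe sets, since *Fabp5* has 2. NSPs were grown from neural stem cells of the ventricular zone of C57BL/6J embryos at embryonic day 14, and they were differentiated into astrocytes in medium with 10% FBS (fetal bovine serum). Each group held 3 arrays of biological replicates, except for a group of 2. Untreated NSPs were collected at the start (0 h) and after 6, 24, 48 or 72 h. NSPs given TNF (50 ng/mL) from the start were collected after 6, 24, 48 or 72 h, the last of these being the group of 2 arrays. TNF is a cytokine that activates the transcription factor NF-κB, and the comparison asks whether it alters differentiation into astrocytes. The model is a primary culture of embryonic cells, and serum, itself a source of lipids and lipoproteins, was in the differentiation medium with and without TNF. Before differentiation the NSPs were grown with EGF (epidermal growth factor), in a medium for which the paper names no serum. For differentiation they were moved onto poly-L-ornithine. In comparisons with 0 h, time in differentiation therefore cannot be told apart from the change of medium and of attachment.

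Brain cells are cut off from most of the lipoproteins of blood, and astrocytes make their own lipoprotein particles. APOE and clusterin (also named APOJ) are the main apolipoproteins of these particles, which carry cholesterol and phospholipids to other cells through receptors of the LDL receptor family. Inside the cell, FABP7 (brain lipid-binding protein, a classical marker of radial glia) and FABP5 shuttle fatty acids. Lipoprotein lipase frees fatty acids from triglycerides, ACSBG1 couples them to coenzyme A, and the SCD enzymes place a double bond into saturated fatty acids. CH25H makes 25-hydroxycholesterol, an oxysterol that macrophages release during inflammation.

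The level of a gene is its log2 signal after RMA, so that a step of 1 is a 2-fold change. Signals of different probe sets depend on their probes, and levels are therefore compared only within a gene. Because whole cultures were measured, fewer cells of a type and less RNA per cell cannot be told apart. Fold changes come from a single limma fit of all 26 arrays, and a gene counted as called at a q-value under 0.05, computed across all 35556 probe sets. *Apod* (mean log2 signal of 6.24 over all arrays) and *Ch25h* (5.94) lay among the dimmest 40% of probe sets, where an unchanged signal says little about a gene. *Lpl* (7.21) lay at percentile 41.4. The other members were far brighter, at percentiles 91.6 to 99.96.

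Sequence upstream of the start site was given for 5 of the 10 members in the RefSeq promoter table of GRCm38.p6 (*Apoe*, *Apod*, *Fabp7*, *Acsbg1* and *Ch25h*), in 7 windows. *Clu*, *Fabp5*, *Lpl*, *Scd1* and *Scd2* had none there. The 250 bases before the start site were searched on both strands for the κB motifs GGANNTTCC and GGANNTCCC, the letters bound by NF-κB, and for the sterol element TCACNCCAC. These occurred in 3.59%, 3.59% and 1.05% of all 32851 windows of that length. Of the 7 windows 1 held a match, that of *Apod*, and it begins 93 bases before the start site on the reverse strand. A match is a run of letters and not a site of binding. The windows shown are those of *Apoe* and *Acsbg1* because these genes differed most between replicates at 0 and 6 h, and that of *Apod* because of its κB match, in capitals. These genes lie on the minus strand, and each window is written from 5′ to 3′ in the direction of transcription. *Apoe* has 3 windows, which belong to start sites inside the span of the gene given in the description of *Apoe*, and the one nearest its 5′ end is shown.
*Apoe*, chr7:19699189-19699438: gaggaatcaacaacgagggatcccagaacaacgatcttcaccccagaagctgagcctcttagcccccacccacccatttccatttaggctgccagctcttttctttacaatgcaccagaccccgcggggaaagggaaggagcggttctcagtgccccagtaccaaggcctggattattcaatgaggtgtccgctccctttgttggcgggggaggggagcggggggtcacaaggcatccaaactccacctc
*Apod*, chr16:31314809-31315058: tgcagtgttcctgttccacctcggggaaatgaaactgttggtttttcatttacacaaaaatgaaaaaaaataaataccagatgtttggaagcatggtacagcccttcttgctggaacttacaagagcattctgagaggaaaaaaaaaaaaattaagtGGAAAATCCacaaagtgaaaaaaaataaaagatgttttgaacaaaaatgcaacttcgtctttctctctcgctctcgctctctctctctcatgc
*Acsbg1*, chr9:54661886-54662135: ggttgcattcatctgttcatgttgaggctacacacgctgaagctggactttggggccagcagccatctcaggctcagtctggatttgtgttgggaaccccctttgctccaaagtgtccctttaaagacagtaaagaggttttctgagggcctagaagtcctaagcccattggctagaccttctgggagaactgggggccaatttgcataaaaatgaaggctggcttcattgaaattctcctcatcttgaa

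*Nfkbia* was called higher with TNF at every time, and 4 of 9 astrocyte markers were called higher in untreated cells at 72 h. Of all probe sets 12.6% were called higher in untreated cells at 72 h. *Nfkbia*, an inhibitor of NF-κB that NF-κB itself induces, was higher with TNF by 2.11, 2.38, 2.67 and 2.62 log2 units at 6, 24, 48 and 72 h (limma, q = 2.83e-08 to 3.14e-10). *Gfap*, the intermediate filament of astrocytes, rose by 4.54 log2 units to 13.54 in untreated cells within 72 h. Microglia markers stayed between 6.54 and 7.12 on average over 8 genes, 6 of them in the dimmest 40% of probe sets. The replicates did not start alike. The mean log2 signal of the proliferation genes *Mki67*, *Top2a* and *Cdk1* was 7.86, 12.07 and 10.77 in untreated replicates 1, 2 and 3 at 0 h, and after 6 h it was 7.32, 11.95 and 10.67 without TNF, beside 7.22, 11.66 and 10.58 in the TNF group. From 24 h on it was 7.10 to 8.72 on every array. Replicate 2 also departed from the mean of the other replicates by over 1 log2 unit at 5.64%, 1.96% and 7.57% of all probe sets in these early groups, and at 0.579% to 0.942% in the later groups of 3 arrays.

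**Figure D1:**
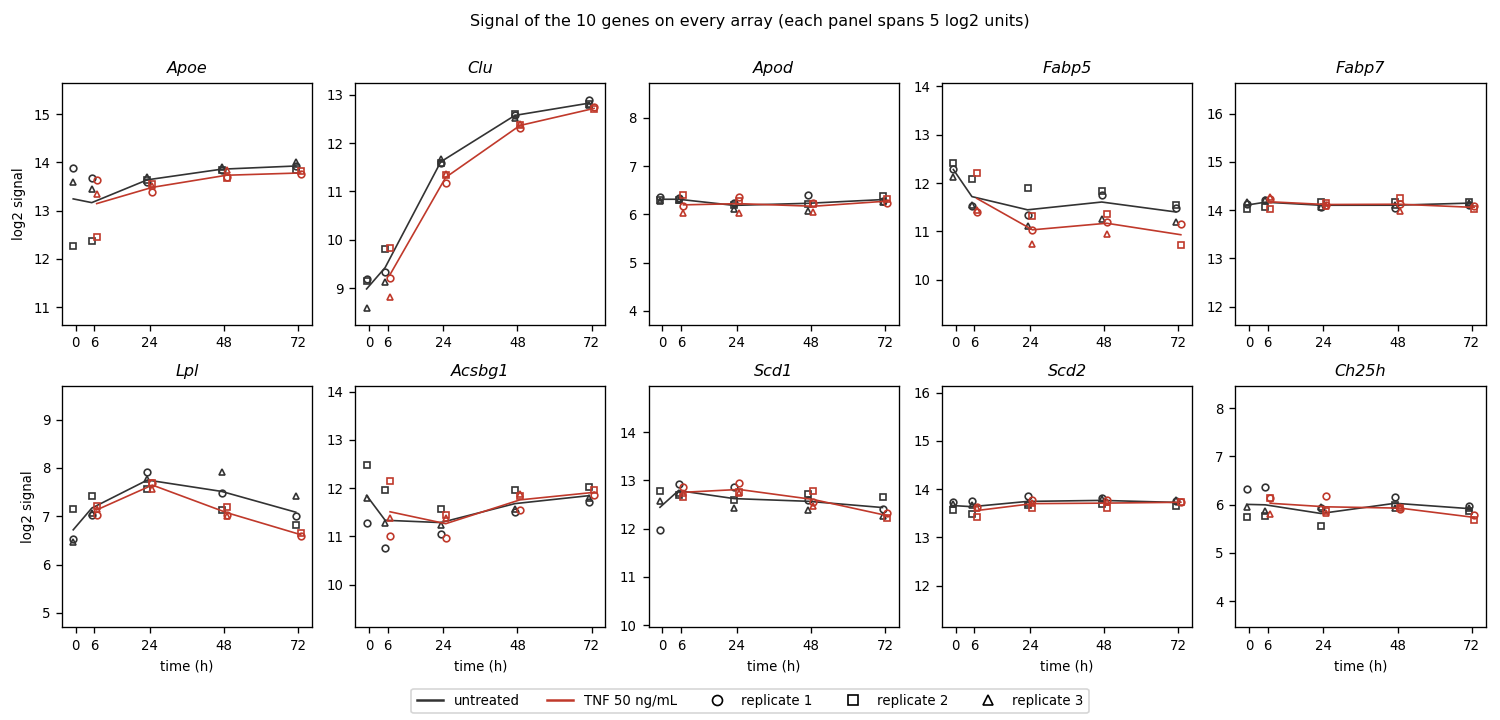
Log2 signal (vertical axis, 5 units in every panel) of the 10 genes against time in h, with 1 symbol per array, black for untreated and red for TNF, shapes for replicate numbers and lines through the group means. *Clu* climbs from 8.98 to 12.83 in untreated cells, *Fabp5* descends from 12.28 to 11.40, the untreated mean of *Lpl* is highest at 24 h, and *Fabp7* and *Scd2* stay level.

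*Clu* had by far the widest range of the 10 genes, and most of it was gained between 6 and 48 h. The gene (chromosome 14, 65968483 to 65981548, GRCm38) encodes clusterin, a secreted chaperone of lipoprotein particles. Its log2 signal in untreated replicates 1, 2 and 3 was 9.20, 9.15 and 8.60 at 0 h, then 9.33, 9.82 and 9.13 at 6 h, and then 11.58, 11.59 and 11.67 at 24 h, then 12.59, 12.62 and 12.52 at 48 h, and finally 12.89, 12.81 and 12.79 at 72 h. The arrays of 0 and 6 h overlapped, and every later time lay entirely above the time before. *Clu* rose 6.20-fold by 24 h (log2 fold change 2.63 ± 0.19 SE, n = 3 against 3, limma q = 8.38e-09), 12.1-fold by 48 h (3.59, q = 8.04e-11) and 14.4-fold by 72 h (3.85, q = 1.79e-11). The step from 6 to 24 h alone was 4.56-fold (log2 2.19, limma q = 1.12e-06). The step from 24 to 48 h, log2 0.96 with a 95% interval of 0.56 to 1.36, narrowly missed the threshold (q = 0.0555), although the 3 arrays of each time did not overlap. Between 48 and 72 h the difference was 0.25 (−0.15 to 0.66).

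With TNF, *Clu* climbed along the same path at slightly lower values. Its log2 signal with TNF was 9.20, 9.83 and 8.81 at 6 h, and then 11.17, 11.33 and 11.37 at 24 h, then 12.32, 12.38 and 12.40 at 48 h, and finally 12.74 and 12.70 at 72 h. All TNF arrays of 24, 48 and 72 h lay below all untreated arrays of the same time. The differences in the order of the 4 times were −0.14, −0.32, −0.21 and −0.11 log2 units, and none passed the test (limma, q = 0.806 to 1). Ordered by mean, the conditions ran untreated 72 h, TNF 72 h, untreated 48 h, TNF 48 h, untreated 24 h, TNF 24 h, untreated 6 h, TNF 6 h and untreated 0 h, and 6 of the 8 neighbouring pairs did not overlap. The 2 neighbours that did were the last ones, among the arrays of 0 and 6 h.

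The SE of *Clu* is set by all 26 arrays, and its spread was unequal. The SD over replicates was 0.34 to 0.51 at 0 and 6 h and 0.03 to 0.10 at later times. Without the arrays of 0 and 6 h, a fit added after the data were seen, *Clu* was lower with TNF at 24 h (log2 −0.32 ± 0.07 SE, limma q = 0.0248), and it rose between 24 and 48 h (q = 1.9e-05).

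*Apoe* (chromosome 7, 19696244 to 19701310), the major apolipoprotein of the brain, was bright on every array, and its early values differed more between replicates than between conditions. In untreated replicates 1, 2 and 3 its log2 signal was 13.88, 12.27 and 13.58 at 0 h, then 13.67, 12.37 and 13.46 at 6 h, and then 13.59, 13.63 and 13.70 at 24 h, then 13.84, 13.84 and 13.90 at 48 h, and finally 13.92, 13.84 and 14.01 at 72 h. Replicate 2 was thus the low array at 0 and 6 h and joined the others from 24 h on. It differed from the mean of the other replicates by −1.46, −1.20 and −1.04 log2 units at untreated 0 h, untreated 6 h and TNF 6 h. From 24 h to 72 h this gap was between −0.12 and 0.12. The SD over replicates was 0.86 at 0 h and 0.03 to 0.08 in untreated cells at 24, 48 and 72 h.

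Against 0 h, *Apoe* differed by 0.39, 0.61 and 0.68 log2 units at 24, 48 and 72 h, and none of these passed (limma, q = 0.236, 0.178 and 0.0881). Same-numbered arrays of 72 and 0 h deviated together only weakly (r = 0.14 to 0.175 over all probe sets) and were taken as paired. The block used next is an offset per replicate number, shared by all groups and also by those not taken as paired. With the replicate number as a block, the difference at 72 h was called (0.68 ± 0.29 SE, limma q = 0.0387). Within replicates 1, 2 and 3 it was 0.04, 1.57 and 0.43, with replicate 2 far above the others. With TNF, *Apoe* stood at 13.64, 12.45 and 13.34 at 6 h, and then 13.38, 13.56 and 13.51 at 24 h, then 13.69, 13.68 and 13.84 at 48 h, and finally 13.75 and 13.81 at 72 h. The TNF effects were −0.02, −0.16, −0.13 and −0.14, none called, and the arrays of TNF-treated and untreated cells did not overlap at 24 and 72 h. The 95% interval at 24 h, −0.85 to 0.54, is set by the spread of all arrays, the early ones included. Without the low replicate 2 of 0 h, the differences of *Apoe* shrank to 0.13 at 48 h and 0.19 at 72 h (limma, q = 0.469 and 0.317). Leaving out untreated replicate 1 or 3 of 0 h gave a call at 72 h (log2 0.998 and 0.85, limma q = 0.0312 and 0.0495), and leaving out replicate 1 gave one at 48 h (0.93, q = 0.046).

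*Acsbg1* (chromosome 9, 54604886 to 54661885), an acyl-CoA synthetase of glia and steroid-producing tissues, ran opposite to *Apoe* among the early replicates. Its log2 signal was 11.27, 12.49 and 11.79 in replicates 1, 2 and 3 at 0 h, then 10.75, 11.97 and 11.29 at 6 h and 11.01, 12.14 and 11.38 with TNF at 6 h. In these 3 groups replicate 1 was lowest and replicate 2 highest for *Acsbg1* and for the proliferation genes, while for *Apoe* replicate 1 was highest and replicate 2 lowest. With 3 replicates such an order has no test, and the part of proliferation in it was not tested. Within each replicate *Acsbg1* lay below its own 0 h value by nearly the same amount at 6 h, with differences of −0.52, −0.52 and −0.50. The mean difference of −0.51 was not called (limma, q = 0.323, and q = 0.0523 with the replicate block). Values of 11.05 to 11.57 at 24 h were followed by 11.71 to 12.03 at 72 h, and the mean at 72 h was level with 0 h (difference −0.00, 95% interval −0.63 to 0.63). TNF effects were 0.18, −0.02, 0.08 and 0.07, with overlapping arrays at all 4 times.

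**Figure D2:**
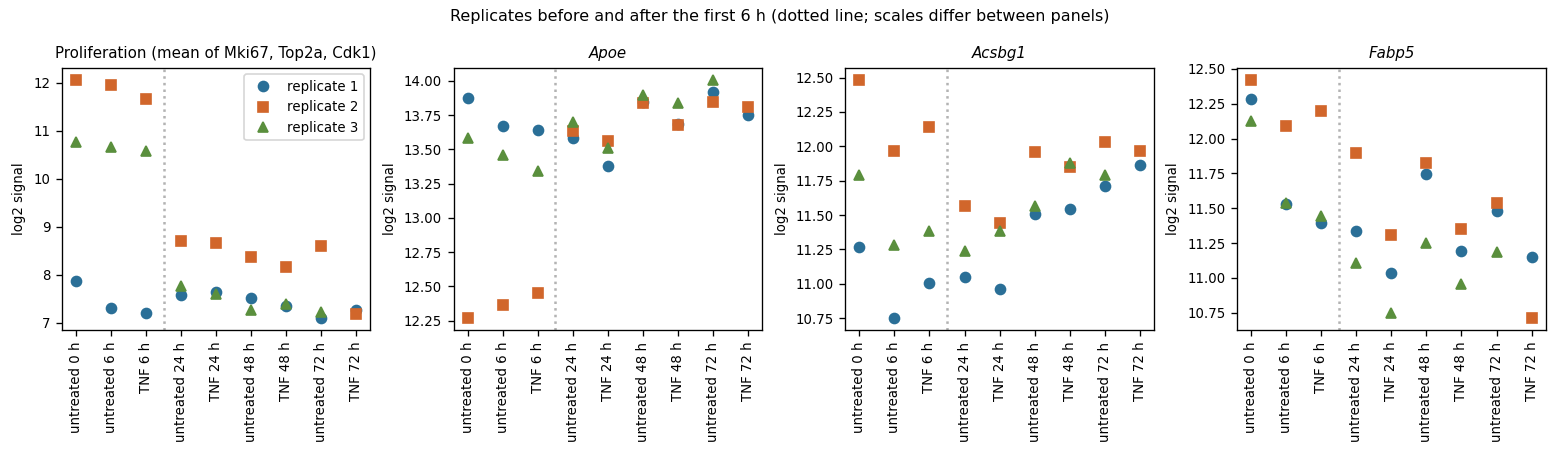
Log2 signal (vertical axis, own scale in each panel) of the mean of 3 proliferation genes and of *Apoe*, *Acsbg1* and *Fabp5* in the 9 groups (horizontal axis), with 1 point per array coloured by replicate number and a dotted line after the 6 h groups. Left of the line replicate 2 is highest for the proliferation genes (11.66 to 12.07) and *Acsbg1* and lowest for *Apoe* (12.27 to 12.45), and right of it the replicates lie close together for *Apoe*.

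*Apod* (chromosome 16, 31296192 to 31314808), a lipocalin of glia that binds arachidonic acid, stayed near the background of the array. Its 26 values ran from 6.02 to 6.41, and its 9 means from 6.17 to 6.31. No comparison called it with all arrays weighted alike, including those with TNF, where the effects were −0.12, 0.04, −0.06 and −0.03. The promoter window with the κB match belongs to this gene, whose dim signal leaves a response of few transcripts undetectable.

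*Fabp5* was the only member called lower during differentiation. The gene (chromosome 3, 10012585 to 10016610) encodes the epidermal fatty acid-binding protein, which neural progenitors use. Its log2 signal in untreated replicates 1, 2 and 3 was 12.29, 12.42 and 12.13 at 0 h, then 11.53, 12.09 and 11.54 at 6 h, and then 11.34, 11.89 and 11.11 at 24 h, then 11.74, 11.83 and 11.25 at 48 h, and finally 11.48, 11.54 and 11.19 at 72 h. All arrays of later times lay below all arrays of 0 h, and replicate 2 was the highest untreated array at every time. *Fabp5* fell 1.78-fold by 24 h (log2 −0.83 ± 0.24 SE, n = 3 against 3, limma q = 0.0122), 1.59-fold by 48 h (−0.67, q = 0.0416) and 1.84-fold by 72 h (−0.88, q = 0.00587). At 6 h the difference was already −0.56, with a q of 0.147 without and 0.0147 with the replicate block in limma, for arrays taken as paired. Differences within replicates 1, 2 and 3 were −0.76, −0.33 and −0.59 at 6 h and −0.81, −0.89 and −0.94 at 72 h.

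The calls at 24 and 48 h rested on few arrays. Without untreated replicate 3 of 24 h the first was lost (log2 −0.66, limma q = 0.0692). Leaving out untreated replicate 1 or 2 of 0 h or replicate 2 or 3 of 48 h ended the second (limma q = 0.0579 to 0.223), and with only the arrays compared in the fit both were lost (q = 0.0579 and 0.109). Benjamini-Hochberg adjustment ended the call at 48 h (adjusted p = 0.0641), and neither passed a q-value threshold of 0.01 or a minimum log2 fold change of 1. The second probe set of *Fabp5* tracked the first with r = 0.999 over 26 arrays, at signals 0.07 to 0.16 lower. Both may catch the same transcripts, and they are no independent measurement.

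With TNF, *Fabp5* read 11.40, 12.20 and 11.45 at 6 h, and then 11.04, 11.31 and 10.75 at 24 h, then 11.20, 11.35 and 10.95 at 48 h, and finally 11.15 and 10.71 at 72 h. The TNF effect was −0.04 at 6 h, −0.41 (95% interval −0.90 to 0.08) at 24 h, −0.44 (−0.93 to 0.05) at 48 h and −0.47 (−1.02 to 0.08) at 72 h. None passed the test (limma, q = 0.629 to 1), and only at 72 h did the arrays not overlap. The intervals reach from −1.02 to 0.08 log2 units at these 3 times. Of the 9 conditions only untreated 0 h was separated from its neighbour in the order of means.

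*Fabp7* (chromosome 10, 57784923 to 57788450) varied little among the arrays, and no comparison called it with all arrays weighted alike. All 26 arrays lay between 13.99 and 14.27, and the 9 means between 14.06 and 14.17. Against 0 h the untreated differences were 0.06, −0.00, −0.00 and 0.04 log2 units, with 95% intervals that ran from −0.18 to 0.23. TNF effects were 0.01, 0.02, 0.02 and −0.09, and their intervals ran from −0.28 to 0.19. The highest value of any probe set was 14.61, so that the arrays leave little room above *Fabp7*.

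*Lpl* (chromosome 8, 68880555 to 68906932) rose by 24 h, where its untreated mean was highest. Its log2 signal in untreated replicates 1, 2 and 3 was 6.53, 7.14 and 6.48 at 0 h, then 7.03, 7.41 and 7.06 at 6 h, and then 7.92, 7.56 and 7.77 at 24 h, then 7.49, 7.14 and 7.92 at 48 h, and finally 7.01, 6.82 and 7.42 at 72 h. The arrays of 24 h lay above those of 0 and 6 h, and those of 48 h overlapped with 0 h through replicate 2. *Lpl* rose 2.04-fold by 24 h (log2 1.03 ± 0.19 SE, limma q = 4.5e-04) and was 1.74-fold above 0 h at 48 h (0.80, q = 0.00404). At 72 h the difference was 0.37 (q = 0.1). No decline after 24 h passed the test, with differences of −0.24 from 24 to 48 h and −0.43 from 48 to 72 h (limma, q = 1 for both), and replicate 3 was higher at 48 h than at 24 h. The step from 6 to 24 h, 0.58, passed with the replicate block (q = 0.0498) for arrays taken as paired and missed without it (limma q = 0.0719). Replicate 2 differed from its own 0 h value by 0.27 at 6 h, −0.00 at 48 h and −0.33 at 72 h, while replicates 1 and 3 were higher at all of these times. Without replicate 2 of 0 h, *Lpl* was also called at 6 h (log2 0.66, limma q = 0.0164) and 72 h (0.58, q = 0.0184). Leaving out any other array of the groups compared gave 0.33 to 0.52 at 6 h and 0.20 to 0.50 at 72 h, with no call for *Lpl*. With only the arrays of 0 and 48 h in the fit, the call at 48 h was lost (q = 0.152).

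Among the TNF effects on the members, only *Lpl* had an unadjusted p under 0.05, at 48 and 72 h. Of all probe sets 6.51% and 9.57% had one at these times, and 1 of 10 members lies near these shares. With TNF it read 7.02, 7.21 and 7.16 at 6 h, and then 7.69, 7.68 and 7.57 at 24 h, then 7.02, 7.20 and 7.01 at 48 h, and finally 6.60 and 6.64 at 72 h. The TNF effect was −0.04 and −0.10 at 6 and 24 h, −0.44 (95% interval −0.83 to −0.05) at 48 h and −0.47 (−0.90 to −0.03) at 72 h. Neither later value passed over all probe sets (limma q = 0.568 and 0.464), and the arrays overlapped at 48 h but not at 72 h. Weighting the arrays by their quality gave a call at 72 h (log2 −0.51, limma q = 0.0212).

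The desaturases, neighbours on chromosome 19 (*Scd1* at 44394450 to 44407709, *Scd2* at 44293676 to 44306864), passed no test in any comparison with all arrays in the fit and weighted alike. *Scd1*, the main SCD isoform of liver and fat, read 11.97, 12.78 and 12.58 at 0 h and 12.93, 12.70 and 12.74 at 6 h. The low array was replicate 1 of 0 h, and differences within replicates 1, 2 and 3 were 0.96, −0.08 and 0.16. The mean difference was 0.35 (limma q = 0.208), and for *Scd1* it shrank to 0.11 without replicate 1 of 0 h (q = 0.53) and was called without replicate 2 of 0 h (0.52, q = 0.0348). Later untreated *Scd1* values ran from 12.26 to 12.86. *Scd2*, the main isoform of the brain, stayed between 13.41 and 13.86 on all arrays. TNF effects were −0.03, 0.19, 0.04 and −0.17 for *Scd1* and −0.08, −0.05, −0.06 and 0.00 for *Scd2*, and the intervals for *Scd2* ran from −0.27 to 0.21.

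*Ch25h* (chromosome 19, 34473783 to 34475148) showed no TNF effect that passed the test, at signals near the background. Its 26 values ran from 5.56 to 6.36. TNF effects were 0.03, 0.14, −0.10 and −0.18 with an upper 95% limit of 0.47 at 24 h, the highest of the 4 times. At 72 h the TNF arrays, 5.79 and 5.68, lay below the untreated ones, 5.97, 5.86 and 5.93.

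**Figure D3:**
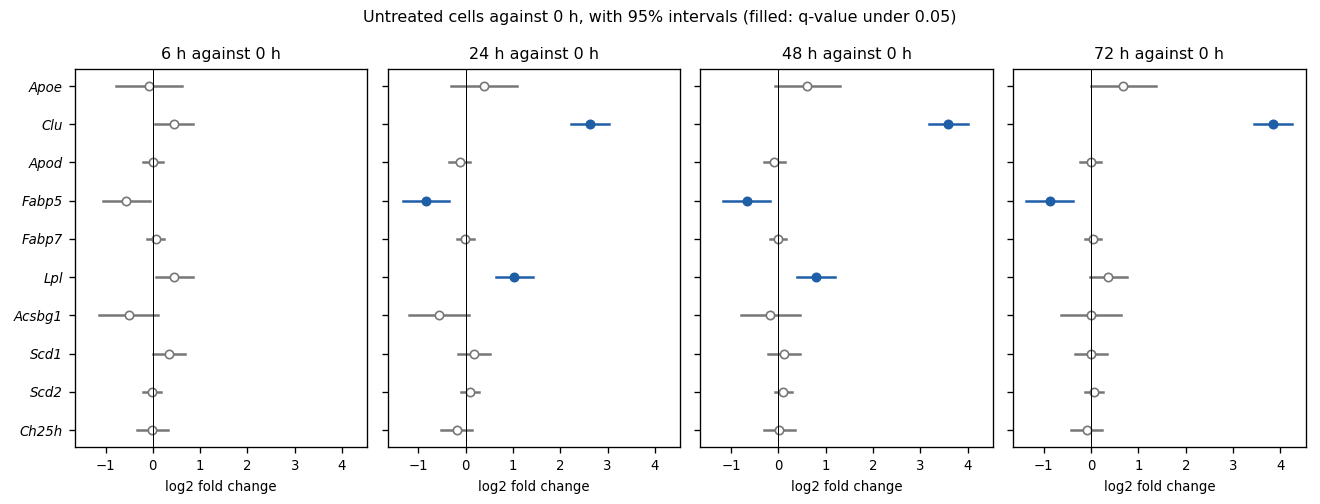
Log2 fold change (horizontal axis) of untreated cells at 6, 24, 48 and 72 h against 0 h for the 10 genes, with 95% intervals from limma and filled symbols for q-values under 0.05. *Clu* stands apart at 2.63 to 3.85 from 24 h on, *Fabp5* is called below 0 at 24, 48 and 72 h, and *Lpl* is called above 0 at 24 and 48 h.

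Counted over the 10 members, untreated cells at 24 h held 2 called higher (*Clu*, *Lpl*), where 10.0% of all probe sets were, and 1 called lower (*Fabp5*), where 6.51% were. At 48 h the same 3 genes were called in the same directions, against 8.99% higher and 6.97% lower. At 72 h *Clu* was called higher against 12.6%, and *Fabp5* lower against 10.2%. With 10 genes, 1 or 2 calls lie near these backgrounds, and the counts say nothing particular about the group. At 6 h no member was called by limma, where 7.67% of all probe sets were. There 4 members had an unadjusted p under 0.05, as had 17.5% of all probe sets. The step from 6 to 24 h called 1 member (5.02% of all probe sets). The steps from 24 to 48 h (0.121%) and from 48 to 72 h (0.00844%) called none, and almost no probe set was called at all. In each step 1 member had an unadjusted p under 0.05, beside 4.57% and 1.23% of all probe sets. The median log2 fold change of the 10 members at 72 h was 0.02, beside −0.05 over all probe sets.

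TNF called no member at any time in limma. It called 0.326%, 0.863%, 1.04% and 1.15% of all probe sets at 6, 24, 48 and 72 h, a background at which 0 calls among 10 genes says nothing particular about them. The number of members with an unadjusted p under 0.05 was 0, 0, 1 and 1, beside 4.97%, 5.62%, 6.51% and 9.57% of all probe sets. Differences between the TNF effect at 24, 48 or 72 h and that at 6 h, which share the arrays of 6 h, called none either (0.0253%, 0.104% and 0.124% of all probe sets). Of the members 0 had an unadjusted p under 0.05 in these differences, beside 2.66%, 2.88% and 2.95% of all probe sets. Without overlap of arrays, 0, 2, 1 and 6 of the 10 members were lower with TNF at 6, 24, 48 and 72 h, where 4.24%, 7.31%, 5.76% and 22.0% of all probe sets were. At 72 h these were *Apoe*, *Clu*, *Fabp5*, *Fabp7*, *Lpl* and *Ch25h*. No member was higher without overlap at any time, where 4.31%, 6.85%, 6.41% and 19.0% of all probe sets were. The median effect on the members was −0.04, −0.03, −0.08 and −0.13, beside −0.04, 0.01, −0.02 and −0.02 over all probe sets. With 2 TNF arrays at 72 h the 95% interval for *Apoe* runs from −0.92 to 0.63 and that for *Fabp5* from −1.02 to 0.08.

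**Figure D4:**
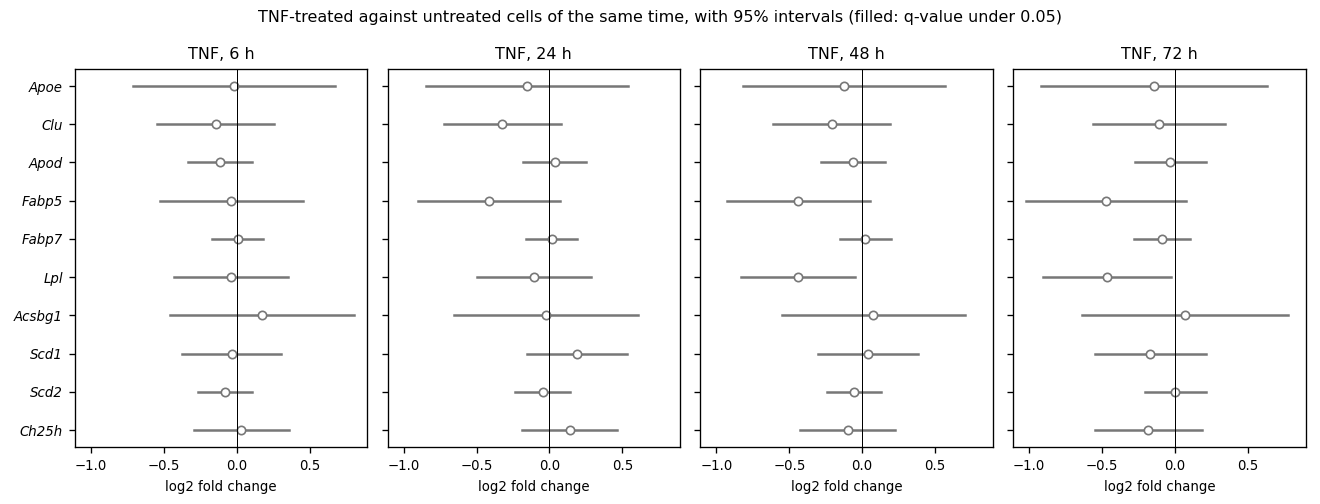
Log2 fold change (horizontal axis) of TNF-treated against untreated cells of the same time for the 10 genes, with 95% intervals from limma, where open symbols did not pass the test. All symbols are open, and the lowest values are those of *Fabp5* (−0.41 to −0.47 from 24 h on) and *Lpl* (−0.44 and −0.47 at 48 and 72 h).

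Markers of cell types moved with these comparisons. Over all probe sets 12.6% were called higher and 10.2% lower in untreated cells at 72 h. In marker lists this short, 1 or 2 calls lie near these shares. Of 9 astrocyte markers, *Gfap*, *Aqp4* (a water channel), *Gja1* (a gap junction protein) and *Sox9* rose in untreated cells by 72 h, none fell, and 5 were not called. Earlier, *Slc1a3* fell by 0.37 log2 units at 6 h and *Slc1a2* by 0.56 at 24 h (limma, q = 0.0211 and 0.0347), both glutamate transporters of astrocytes, and at 72 h *Aldh1l1* differed from 0 h by −0.41 and *Slc1a2* by −0.25 without a call. Without replicate 2 of 0 h, *Sox9* (log2 0.36, q = 0.0553) and *Gja1* (0.53, q = 0.0635) lost their calls at 72 h. The mean of the 9 was 10.94 to 11.71 at 0 h and 12.11 to 12.37 at 72 h. With TNF this mean lay lower without overlap, at 11.11 to 11.20 beside 11.27 to 11.45 at 6 h, at 11.58 to 11.81 beside 12.01 to 12.24 at 24 h, at 11.74 to 11.99 beside 12.26 to 12.37 at 48 h, and at 11.74 to 11.85 beside 12.11 to 12.37 at 72 h. Not every gene of the 9 followed this mean. At 48 h *Gfap* read 12.34, 12.651 and 12.785 with TNF beside 13.361, 13.622 and 13.585 without. *Aldh1l1* was not lower at that time, at 11.461, 11.658 and 11.453 with TNF beside 11.409, 11.652 and 11.195 without. *Gja1* at 24 h was the only one of the 9 called (log2 −1.10, limma q = 0.0235), and the call was lost when any 1 of 5 of its 6 arrays was left out (q = 0.0597 to 0.162). Of 3 measured proliferation markers *Mki67* fell by 72 h. Of 7 mural and fibroblast markers *Acta2* (smooth muscle actin) and *Rgs5* rose, with a list mean of 6.92 to 7.40 at 0 h and 7.69 to 7.73 at 72 h. With TNF this mean lay higher at 24 h (up to 7.91, with the highest untreated array at 7.78) and lower at 48 h (7.57 to 7.61 beside 7.65 to 7.85) and 72 h (7.56 to 7.63 beside 7.69 to 7.73), without overlap. The mean of 4 endothelial markers lay higher with TNF at 24 h (up to 7.06, with the highest untreated array at 6.98), and that of the 8 microglia markers lower at 72 h (6.54 to 6.59 beside 6.63 to 6.72), likewise without overlap. By 72 h in untreated cells, *Nes*, *Prom1* and *Vim* of 6 progenitor markers rose and *Hes5* fell, *Dcx* of 6 neuron markers rose and *Snap25* fell, *Olig2* and *Mag* of 7 oligodendrocyte markers fell, and *Kdr* of 4 endothelial markers rose. *Mki67*, *Dcx*, *Snap25*, *Mag* and *Kdr* each lost the call at 72 h when 1 array or another was left out (limma, q = 0.0514 to 0.18). None of 8 microglia and none of 5 adipocyte markers was called with TNF or in untreated cells at 72 h. The part of these shifts in the values of *Clu*, *Fabp5*, *Lpl* and *Apoe* was not tested.

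The other genes of lipid transport were read from lists. Among 20 other apolipoproteins, fatty acid-binding proteins and lipocalins, 5 rose by 72 h in untreated cells, *Lcn2*, *Scp2* (a sterol carrier), *Dbi* (an acyl-CoA-binding protein), *Apoh* and *Crabp1* (a retinoic acid-binding protein), and 1 fell (*Fabp2*), where 12.6% of all probe sets were called higher and 10.2% lower. TNF raised only *Lcn2* of these 20, at all 4 times. *Lcn2* encodes lipocalin 2, an iron-siderophore carrier of inflammation rather than a lipid carrier, and the log2 effects were 3.63, 5.68, 5.03 and 3.87 (limma, q = 2.99e-06, 2.86e-09, 1.38e-08 and 4.24e-06).

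Of 18 lipoprotein receptors, lipases and their regulators, 7 rose and 4 fell by 72 h, where 12.6% of all probe sets were called higher and 10.2% lower. *Pltp*, which transfers phospholipids between lipoproteins, rose by 2.51 log2 units, *Sorl1*, a sorting receptor that binds APOE, by 2.36, *Lcat*, which esterifies the cholesterol of APOE particles, by 1.85, and *Lrp2*, the megalin receptor, by 1.07. The others that rose were *Angptl4*, *Pnpla2* and *Sort1*. *Scarb1*, a receptor for HDL, fell by 1.49, *Lipg*, endothelial lipase, by 1.20, *Lmf1*, the maturation factor of lipases, by 0.67 and *Vldlr* by 0.43. With TNF the list had 1 call, *Lrp8* (APOE receptor 2), at 48 and 72 h and none at 6 and 24 h. *Lrp8* read 10.06, 9.82 and 10.02 with TNF at 48 h beside 10.49, 10.35 and 10.45 without, and 9.70 and 9.91 beside 10.34, 10.15 and 10.45 at 72 h. It fell by 0.47 and 0.50 log2 units (limma, q = 0.022 and 0.0304), and the arrays did not overlap at either time. The call of *Lrp8* was lost when any 1 of 4 arrays was left out at each time (q = 0.0579 to 0.232 at 48 h and 0.114 to 0.549 at 72 h).

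Among 25 genes of fatty acid activation, synthesis and desaturation, 4 rose and 9 fell by 72 h (12.6% and 10.2% of all probe sets), and TNF called none at any time. The share that rose lies near that background. The desaturase *Scd4* rose by 3.40 log2 units, while its relatives *Scd1* and *Scd2* passed no test. *Fads3* rose by 1.91, *Acsl6* by 1.22 and *Elovl5* by 0.23. *Elovl6*, which lengthens the products of fatty acid synthase, fell by 0.94, *Elovl2*, an elongase of polyunsaturated fatty acids, by 0.93, *Insig1* by 0.83 and *Slc27a3* by 0.70. *Acly*, *Fasn*, *Acaca*, *Fads1* and *Elovl4* fell as well.

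Of 16 genes of oxysterols, the liver X receptor (LXR) and cholesterol efflux, 3 rose and 4 fell by 72 h, beside 12.6% and 10.2% of all probe sets. *Abca1*, which loads cholesterol onto APOE and is a target of LXR, rose by 1.52 log2 units, *Hsd3b7* by 0.96 and *Nr1h3* by 0.27. For *Abca1* the size of the rise rested on replicate 2, with values of 11.80, 8.94 and 11.41 in replicates 1, 2 and 3 at 0 h and 12.23, 12.25 and 12.25 at 72 h. Without replicate 2 of 0 h it was 0.64 and still called (limma q = 0.0226). *Hsd11b1*, *Npc1*, *Rxrb* and *Gpr183*, a receptor for products of 25-hydroxycholesterol, fell by 0.27 to 0.62. TNF raised only *Nr1h3*, which encodes LXRα. It read 7.81, 7.91 and 7.66 with TNF at 24 h beside 7.44, 7.36 and 7.37 without, 7.89, 8.11 and 8.10 beside 7.62, 7.61 and 7.58 at 48 h, and finally 8.11 and 8.10 beside 7.63, 7.64 and 7.61 at 72 h. The effects of 0.41, 0.43 and 0.48 log2 units passed the test (limma, q = 0.0305, 0.017 and 0.0212), and the arrays did not overlap. The call of *Nr1h3* was lost when any 1 of 5, 4 and 5 arrays was left out at 24, 48 and 72 h, with effects of 0.35 to 0.48 log2 units (q = 0.0585 to 0.275). At 6 h the effect was 0.17 and not called. *Apoe* and *Abca1*, both known targets of LXR, were not called with TNF, nor was *Pltp* of the receptors and lipases. At 24 h *Pltp* read 9.90, 10.86 and 10.41 with TNF beside 9.61, 10.43 and 10.11 without, and the arrays overlapped. Whether the activity of LXR changed was not tested. Of 18 genes of lipid droplets and fatty acid oxidation, *Acadm* rose and *Hilpda*, *G0s2*, *Plin3* and *Dgat1* fell by 72 h, against the same background, and none was called with TNF.

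For the 3 members whose 9 condition means spanned at least 1 log2 unit, the genes with the most similar course were looked up. The search covered 3061 or 3062 probe sets of a single symbol that also spanned 1 unit. The 9 means come from the same cultures at successive times, and the correlations are descriptions. Closest to *Clu* came *Bace2*, a protease of the BACE family (Pearson r = 0.9996), *Stom* (0.996) and *Ecrg4* (0.996). *Bace2* climbed from 7.51 at 0 h to 11.92 at 72 h in untreated cells, and to 11.68 with TNF. Closest to *Fabp5* came *Elovl2* (0.976), *Adamts12* (0.971) and *Car8* (0.953), and closest to *Lpl* came *Pcp4* (0.955), *Diras2* (0.947) and *Cdh19* (0.945). By Spearman's rho the 3 closest were *Dcx*, *Pgap4* and *Pdgfrl* for *Clu* (rho = 1 for each), *Fancd2*, *Pbk* (rho = 1 for both) and *Elovl2* (0.967) for *Fabp5*, and *Diras2*, *Disp3* and *Ninj1* (0.967 for each) for *Lpl*. *Fancd2* and *Pbk* act in DNA repair and mitosis. From 24 h on their means were 5.97 to 6.17 and 6.21 to 6.45, close to the dim signals of *Apod* and *Ch25h*. Their ranks at these times rest on small differences. Only *Elovl2* and *Diras2* were among the closest by both measures.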

How the data were processed

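Gene expression of NSPs was measured on 26 Affymetrix MoGene 1.0 ST arrays. The deposited log2 signals were made by the authors in R 3.3.1 with oligo and RMA, which subtracts background, equalizes the distributions of the arrays and merges the probes of a probe set. Which versions of both were run is not given in the sources used here. No further normalization was applied, and array medians ran from 7.54 to 7.76. The number of arrays limits the precision. The raw array files were not analysed here, so that background correction was not varied. All columns of the table were used.

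Members were found by gene symbol in the annotation of the array. For *Fabp5* the probe set with the higher mean was used. limma 3.58.1 in R 4.3.3 fitted 9 group means over all arrays, with q-values from an own implementation of the qvalue smoother, a threshold of 0.05 and 95% intervals from the moderated statistic. TNF groups were compared with their untreated groups at equal times, untreated cells with 0 h and with the time before, and later TNF effects with that at 6 h. The fit was tested on simulated data. The series describes its replicates as biological.

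The members and the lists were chosen with earlier results of these data known, and the counts over lists are not independent evidence. Of the genes on the lists 13 were not analysed here. All members were named, and of each list up to 4 genes with the largest change among those called, with others where a count needed them. The windows of sequence were chosen after the values were seen. Coordinates are those of RefSeq GRCm38.p6, the build of the annotation named in the study's methods.

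Same-numbered arrays were taken as paired where their deviations from the group means correlated by over 0.1 over all probe sets in each of 3 pairs. The lowest of the 3 correlations was 0.461 for TNF at 6 h, and for untreated cells 0.503 (6 against 0 h), 0.299 (48 against 0 h), 0.14 (72 against 0 h), 0.1004 (24 against 6 h) and 0.156 (72 against 48 h). It was 0.0263 and −0.0238 for TNF at 24 and 48 h, −0.0545 for untreated 24 against 0 h and 0.0605 for 48 against 24 h, which were not taken as paired, nor was TNF at 72 h with 2 arrays. The second of these arrays is titled replicate 2 and carries that number in the figures and the replicate block. Its proliferation mean was 7.19, beside 8.60 and 7.23 in untreated replicates 2 and 3 of 72 h. Which replicate it belongs with was not tested.

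Alternatives for the threshold were a log2 fold change of at least 1, 0.01 for the q-value, and adjustment by Benjamini-Hochberg. Alternatives for the fit were the arrays of the comparison alone, array weights, cyclic loess normalization, a robust prior with an intensity trend, a block for the replicate number with and without the second TNF array of 72 h, and each array omitted once. Alternatives for the features were to omit the dimmest 40% of probe sets, to keep those of a single symbol, to average the probe sets of a gene, and Spearman's rho for the similar genes. Added after seeing the data were fits without the early arrays of replicate 2, without all arrays of 0 and 6 h, with the second probe set of *Fabp5*, and without each array in turn for the called genes of the lists.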

Additional observations from a re-analysis of the deposited data

How the results depend on the processing

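The members' values kept their sign wherever they were called. Of 2982 values recomputed, 2924 stayed on the same side of the threshold, 15 lost the call, 43 gained it and 0 reversed, while 186 changed sign with a call in neither fit. Alternatives that change only the threshold, the spread or the set of other probe sets leave the estimate as it is and could not reverse it. For TNF, 1 member was called at 24 h with all arrays of 0 and 6 h left out (*Clu*) and 1 at 72 h with array weights (*Lpl*), and every other alternative called 0 at every time. For untreated 6 h against 0 h, the count of 0 became 5 with array weights (*Clu*, *Fabp5*, *Lpl*, *Acsbg1* and *Scd1*), 1 with the replicate block and 2 with the block but not the second TNF 72 h array. The count of 3 at 48 h against 0 h became 1 with a minimum log2 fold change of 1 and 1 with only the arrays compared. The count of 2 at 72 h became 1 with the minimum fold change and 4 with array weights. The count of 1 for 24 h against 6 h became 5 with array weights (*Clu*, *Apod*, *Fabp7*, *Lpl* and *Scd1*), and 2 with the replicate block, with dim probe sets left out, with single symbols only, with the mean over probe sets, and without the early arrays of replicate 2, where *Lpl* joined *Clu*. For 48 h against 24 h, where the arrays were not taken as paired, the count of 0 became 1 (*Clu*) with the replicate block (q = 0.0174), with the block but not the second TNF 72 h array, with only the arrays compared, the trend with a robust prior, array weights, dim probe sets left out, single symbols only, the mean over probe sets, the early arrays of replicate 2 left out, and all arrays of 0 and 6 h left out. For untreated 24 h against 0 h, likewise not paired, the replicate block added *Acsbg1* (−0.56, q = 0.0167) to the calls. The replicate block changed no other call than these and those given for *Fabp5*, *Apoe* and *Lpl*. With one array left out in turn, the counts ranged from 0 to 2 for 6 h against 0 h, from 2 to 3 at 24, 48 and 72 h against 0 h, and from 1 to 1 for 24 h against 6 h, and they were 0 in all other comparisons. For the genes of the lists, leaving out single arrays was added after the data were seen. Of 58 such genes called at 72 h against 0 h, 25 lost the call without 1 array or another, among them 4 of 6 apolipoproteins and binding proteins, 3 of 11 receptors and lipases, 5 of 13 genes of fatty acid synthesis, 4 of 7 of oxysterols and efflux and 2 of 5 of lipid droplets. The markers *Sox9*, *Gja1*, *Dcx*, *Snap25*, *Mag*, *Kdr* and *Mki67* lost it as well. None of the genes of the lists reversed, and *Lcn2* kept its call with TNF at all times. Array weights stopped before they converged, and the causes of these differences were not tested. Signals near the background limit what can be said of *Apod* and *Ch25h*.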
